A study of Mus musculus with 10 samples.

Results

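Wnt signalling genes were followed in AtT20 cells in which the transcription factor gene *Creb3l1* had been knocked down. The genes were 54 of the 53801 in the count table, chosen by their role in the pathway: 10 Wnt ligands, 2 genes for the acylation and export of ligands, 9 Frizzled receptors, 5 co-receptors and alternative receptors, 2 ubiquitin ligases that remove receptors, 5 secreted antagonists, 8 genes for Dishevelled and the proteins that bind it, 5 genes for β-catenin and its destruction complex, 4 TCF/LEF factors and 4 genes of planar cell polarity. AtT20/D16v-F2 is a mouse cell line from a pituitary tumour of corticotroph origin, the cell type that makes pro-opiomelanocortin. Poly(A) RNA was sequenced from 5 libraries of a line stably expressing non-targeting shRNA (the control) and 5 libraries of a line stably expressing *Creb3l1* shRNA, both introduced with lentivirus and neither given any further treatment in the labels. The comparison addressed which transcripts change when Creb3l1, a membrane-bound transcription factor of the endoplasmic reticulum, is reduced. Each shRNA was carried by 1 line, so the effect of the shRNA and any difference between the lines themselves cannot be told apart. The study calls its replicates biological, without saying how the 5 libraries of a line were kept apart, and p-values measure the spread between these libraries of 1 line per shRNA.

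The hairpins are shown because they define both groups and because a guide can also act on other transcripts through its seed. Each target sequence is written 5′ to 3′ as the study lists it, with capitals for the 7 bases that pair with the seed (bases 2 to 8) of a guide that is its reverse complement.
Creb3l1-shRNA1: gagtcggatttccTCAACAAt
Non-targeting shRNA: atcatgttaggcgTACGGACt

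Wnt ligands are lipid-modified secreted proteins that bind a Frizzled receptor together with the co-receptor Lrp5 or Lrp6. In the canonical branch, the bound receptors recruit Dishevelled and Axin, the complex that marks β-catenin for destruction is disabled, and β-catenin enters the nucleus to act with TCF/LEF factors on targets such as *Axin2*. Other branches run through Ror and Ryk receptors and the planar cell polarity proteins, and in the pituitary Wnt signalling is known for its part in the growth of the gland and of its hormone cells.

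The libraries held from 17420698 to 22205107 counts. *Creb3l1* itself (ENSMUSG00000027230, chromosome 2) ranged from 3531 to 3864 normalised counts with the non-targeting hairpin and from 1014 to 1159 with the *Creb3l1* hairpin, where a normalised count is the count scaled to a library of average effective size. Its log2 fold change, written throughout as knockdown against control, was -1.76 ± 0.0385 (SE; edgeR, adjusted p = 3.4e-18). Of 8 corticotroph markers 7 were tested and 6 called (85.7%, against 39.3% of all genes tested). Those lower were 57.1%, against 19.4% of all genes tested, and those higher 28.6%, against 19.9%. The median level of the 7 markers was 2215 normalised counts, against 594 for all tested genes. Whether this level accounts for the share called was not tested. *Pomc* (131411 and 92045 mean normalised counts in control and knockdown), *Tbx19* (11661 and 9669), *Pcsk1* (9981 and 7269) and *Nr3c1* were lower. *Neurod1* (1566 and 2400) and *Pitx1* (892 and 1144) were higher. *Crhr1* was low (29.2 and 26.9), and *Avpr1b* had no count in any library. Of 8 markers of other pituitary hormone cells, *Prl*, *Tshb*, *Fshb* and *Pou1f1* were at 0, *Gh*, *Lhb* and *Ghrhr* had 2 to 7 counts over all libraries, and *Nr5a1* was present (78.7 and 62.9). The summed level of this list was 69.8 to 96.6 normalised counts in the controls and 54.01 to 71.3 in the knockdown. Fibroblast markers summed to 844 to 1227 in the controls and 986 to 1776 in the knockdown, with *Col1a1* called higher (717 and 935), *Col1a2* present and *Lum* at 0. Endothelial markers summed to 16.95 to 25.7 and 7.49 to 11.03, with *Pecam1* called lower (13.8 and 6.41) and *Cdh5* and *Kdr* at 0. *Pecam1* entered the test through the control group, as no knockdown library reached the level required for testing. Leukocyte markers summed to 34.2 to 51.9 and 24.6 to 38.2, nearly all *Cd68*, with *Ptprc* and *Cd3e* at 0, and markers of pituitary stem or folliculostellate cells summed to 202 to 253 and 237 to 274, led by *Sox2*. The part of these differences in the results for Wnt signalling genes was not tested. Control replicate 3 stood apart in that *Gm42418*, an rRNA-overlapping transcript, took 4.13% of its counts against 0.107% to 0.129% in the other controls, and all 14 calls among the Wnt signalling genes were also made without this library.

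Across all 14336 genes tested, 39.3% passed the threshold (adjusted p under 0.01, edgeR quasi-likelihood test), 19.9% higher and 19.4% lower in the knockdown line, and the median log2 fold change of all genes was -0.0025. Of the 54 Wnt signalling genes, 34 were expressed highly enough to test, and 14 of these (41.2%) passed, a share near that of all genes. In the direction of the change, 9 rose (26.5%): *Wnt3*, *Fzd6*, *Lrp6*, *Ror1*, *Znrf3*, *Dvl2*, *Dvl3*, *Dact1* and *Axin2*. The 5 that fell (14.7%) were *Wnt6*, *Wnt11*, *Fzd7*, *Lrp5* and *Ryk*. The control and knockdown libraries did not overlap for 16 of the 34 (47.1%), against 36.0% of all genes tested. The median log2 fold change of the 34 was 0.032. A change of at least 1.5-fold was seen in 4 called genes of the 34, *Wnt3*, *Dact1*, *Wnt6* and *Wnt11*. Of all genes tested, 7.59% were called with a change of this size. The falls among the 4, *Wnt6* and *Wnt11*, were in low genes that entered the test through the control group.

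**Figure D1:**
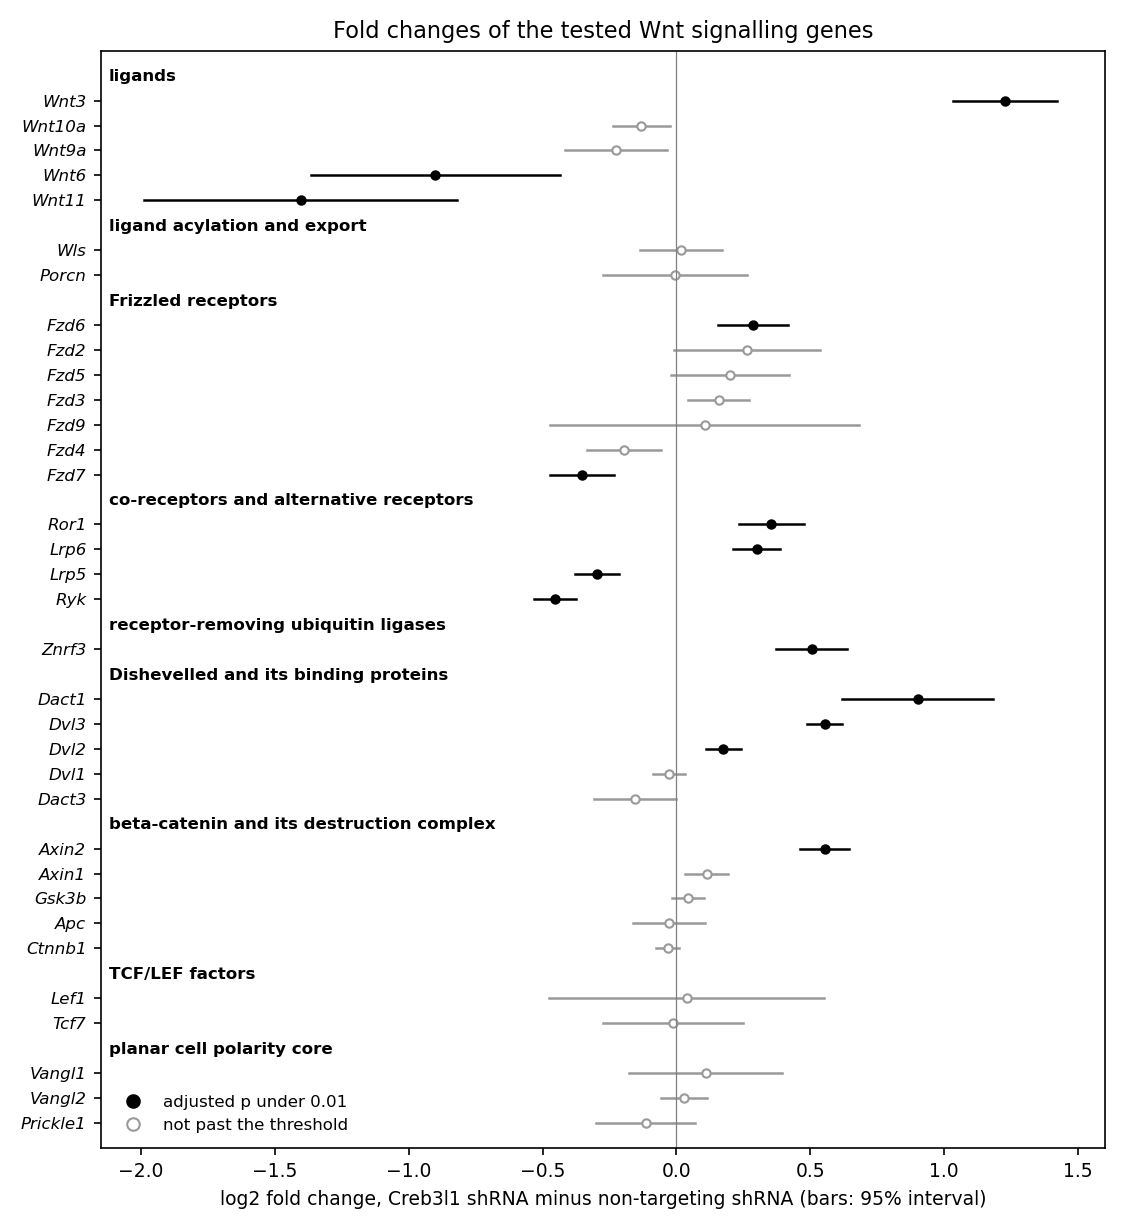
Log2 fold change (Creb3l1 shRNA against non-targeting shRNA) of the 34 tested Wnt signalling genes, grouped by role. Points are edgeR estimates and bars are 95% confidence intervals. *Wnt3* lies farthest to the right at 1.23 and *Wnt11* farthest to the left at -1.40, both ligands, and intervals widen for genes of low count.

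Of the remaining 20 genes, 7 had no count in any library: *Wnt2b*, *Wnt4*, *Fzd8*, *Rnf43*, *Dkk1*, *Sfrp1* and *Nkd2*. Over the 202795971 counts of all libraries this allows a level of up to 0.0148 CPM (counts per 1000000 counts of a library), for counting error only. The other 13 had from 1 to 26 counts over the 10 libraries together and were not tested: *Wnt5a*, *Wnt5b*, *Wnt7b*, *Fzd1*, *Ror2*, *Dkk3*, *Sfrp2*, *Wif1*, *Dact2*, *Nkd1*, *Tcf7l1*, *Tcf7l2* and *Prickle2*. All 5 secreted antagonists on the list were among these 20. *Dkk1*, which blocks Lrp5 and Lrp6, and *Sfrp1*, which binds Wnt ligands outside the cell, were at 0, and *Wif1*, another ligand-binding antagonist, had no more than 3 counts in a library.

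**Figure D2:**
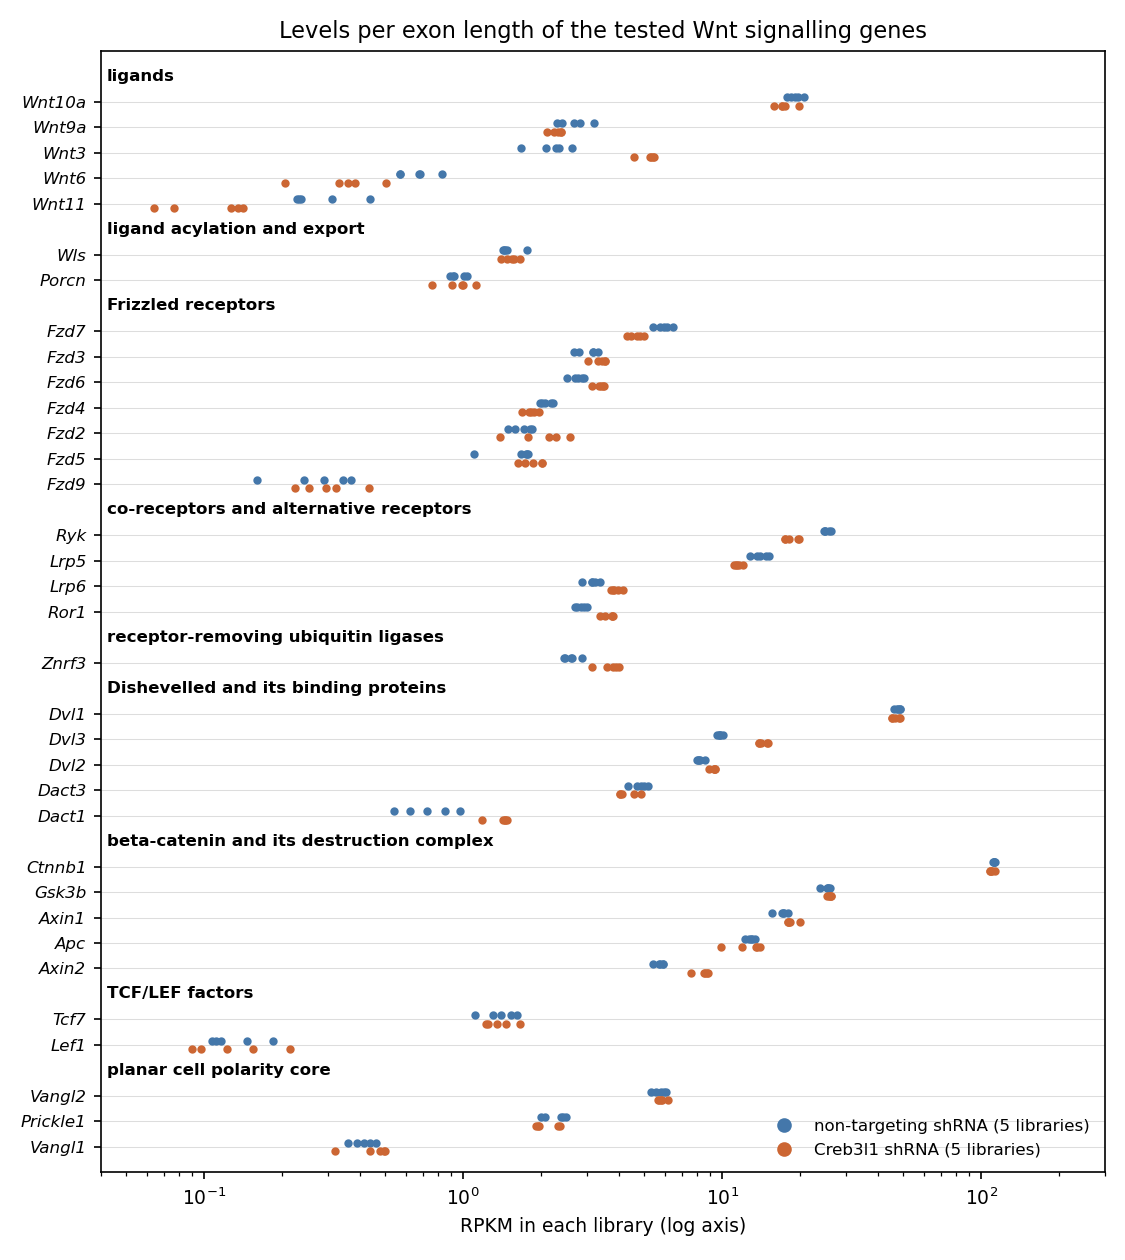
Level of each tested Wnt signalling gene in every library as RPKM (CPM per kilobase of exon) on a log axis, grouped by role and ordered within each role by the control level. Blue points are the 5 libraries with non-targeting shRNA and orange points the 5 with Creb3l1 shRNA. *Ctnnb1* is the most abundant and *Wnt11* and *Lef1* are among the least abundant, and the lines are apart for genes such as *Wnt3*, *Ryk* and *Dvl3*.

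Among the ligands, the knockdown line had more *Wnt3* and less *Wnt6* and *Wnt11*, while *Wnt10a* and *Wnt9a* did not pass the test. *Wnt3* encodes a ligand of the canonical branch, and lies on chromosome 11 from base 103774150 to 103817957 on the plus strand of GRCm38. Its normalised counts were 131, 142, 103.9, 146 and 164 in the control libraries and 327, 337, 341, 284 and 333 in the knockdown libraries. Every knockdown library was above every control library. *Wnt3* rose 2.34-fold, with a log2 fold change of 1.23 ± 0.0933 (SE, n = 5 and 5; 95% CI 1.03 to 1.42; edgeR, adjusted p = 9.8e-10). Expressed per exon length, its level went from 2.20 to 5.20 RPKM.

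*Wnt11* and *Wnt6* were low throughout. *Wnt11*, a ligand known mainly from the non-canonical branches (chromosome 7, 98835112 to 98855195, plus strand), had 26.2, 19.1, 19.6, 36.6 and 19.8 normalised counts in the controls and 6.43, 5.35, 10.6, 11.4 and 11.8 in the knockdown. No library of one line reached into the range of the other. Its log2 fold change was -1.40 ± 0.281 (95% CI -1.99 to -0.82; edgeR, adjusted p = 0.00030), with a mean RPKM of 0.289 in the controls and 0.109 in the knockdown. *Wnt11* entered the test through the control group: 3 of the 5 knockdown libraries reached the minimum of 0.484 CPM. *Wnt6* (chromosome 1, 74771892 to 74785322, plus strand) had 30.2, 25.4, 36.7, 30.0 and 25.5 normalised counts in the controls. In the knockdown it had 14.7, 22.5, 16.0, 17.1 and 9.09. The groups did not overlap, and the log2 fold change was -0.90 ± 0.223 (95% CI -1.37 to -0.43; edgeR, adjusted p = 0.0021). *Wnt6* too entered the test through the control group, with 4 of the 5 knockdown libraries at the minimum.

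*Wnt10a*, another canonical ligand, is the next gene on the plus strand after *Wnt6*, with 6193 bases between them. It was the most abundant ligand per exon length in both lines, at 19.1 RPKM in the controls and 17.5 RPKM in the knockdown. Normalised counts of *Wnt10a* were 953, 987, 1037, 925 and 890.1 in the controls and 797, 993, 878, 854 and 849 in the knockdown. Those ranges overlapped through knockdown replicate 2, and the log2 fold change of -0.13 ± 0.0511 (95% CI -0.24 to -0.03) did not pass the threshold (edgeR, adjusted p = 0.037). Without that library it did (log2 fold change -0.18, adjusted p = 0.0012). *Wnt9a* had 182 ± 24.2 (SD, n = 5) normalised counts in the controls and 155 ± 8.15 in the knockdown (edgeR, adjusted p = 0.045).

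The balance of ligand transcripts can be read from each gene's share of the summed RPKM of the 10 ligands. *Wnt10a* made up 76.5% ± 2.32 (SD, n = 5) of this sum in the controls and 68.6% ± 1.80 in the knockdown. The share of *Wnt3* was 8.85% ± 1.64 in the controls and 20.5% ± 1.42 in the knockdown. These shares did not overlap between the lines, with a highest value for *Wnt3* of 10.8% in the controls and a lowest of 18.6% in the knockdown. The summed RPKM itself was 25.0 ± 0.845 in the controls and 25.4 ± 1.57 in the knockdown, so the makeup of the ligand pool moved while its total differed by less than the spread between libraries. *Porcn*, the acyltransferase that adds the lipid to Wnt ligands, and *Wls*, which carries them to the surface, did not pass the test: *Porcn* had 58.1 ± 3.82 and 58.1 ± 8.27 normalised counts and *Wls* 269.8 ± 25.9 and 273 ± 17.01 in control and knockdown. The 95% CI of the log2 fold change was -0.28 to 0.26 for *Porcn* and -0.14 to 0.17 for *Wls*.

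**Figure D3:**
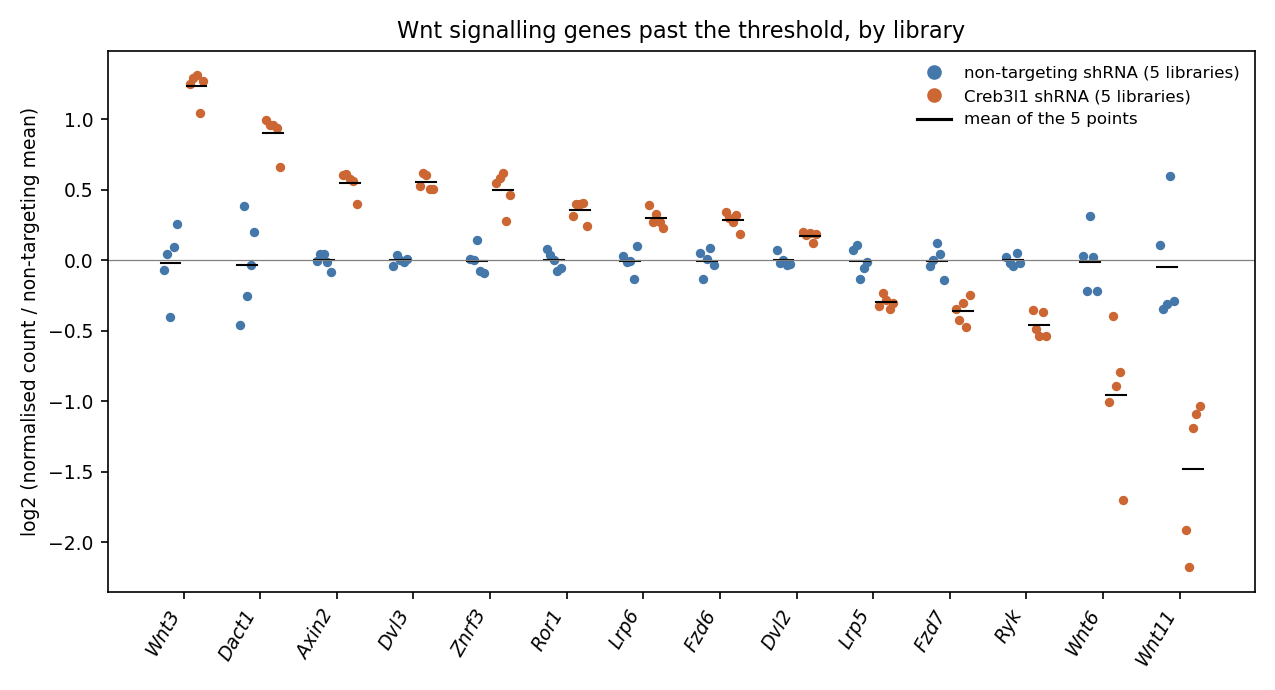
Log2 ratio of the normalised count in each library to the non-targeting shRNA mean, for the 14 Wnt signalling genes that passed the test, ordered from rise to fall. Blue points are the 5 libraries with non-targeting shRNA, orange points the 5 with Creb3l1 shRNA, and black bars the mean of each 5. The lines do not overlap for any of the 14 genes, and the low-count genes *Wnt6* and *Wnt11* scatter most.

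Promoter sequences are shown for the ligands with the largest rise and fall and for *Axin2*, a β-catenin target described further on. They come from RefSeq on GRCm38.p6 and run from 250 bases before to 50 bases after the transcription start, plus strand, 5′ to 3′. Windows of 300 bases were searched on both strands for GACGTG (reverse CACGTC) and for ATCAAAG (reverse CTTTGAT), a core word of TCF/LEF sites. GACGTG is the G-box core that the study reports for Creb3l1 in the *Pcsk1* promoter. Capitals mark a match.
Wnt3, chr11:103773925-103774224: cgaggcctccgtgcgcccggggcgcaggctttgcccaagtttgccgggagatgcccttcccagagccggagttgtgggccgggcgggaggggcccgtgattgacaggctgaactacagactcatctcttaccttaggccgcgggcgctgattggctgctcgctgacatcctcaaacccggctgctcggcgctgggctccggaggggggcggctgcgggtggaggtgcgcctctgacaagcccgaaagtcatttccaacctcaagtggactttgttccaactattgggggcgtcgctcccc
Wnt11, chr7:98834862-98835161: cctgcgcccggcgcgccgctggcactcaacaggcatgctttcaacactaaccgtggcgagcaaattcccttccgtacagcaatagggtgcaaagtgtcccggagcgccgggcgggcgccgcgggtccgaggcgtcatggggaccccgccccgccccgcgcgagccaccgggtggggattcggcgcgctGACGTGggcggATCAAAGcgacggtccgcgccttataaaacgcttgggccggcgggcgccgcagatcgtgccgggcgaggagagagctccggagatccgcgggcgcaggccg
Axin2, chr11:108920099-108920398: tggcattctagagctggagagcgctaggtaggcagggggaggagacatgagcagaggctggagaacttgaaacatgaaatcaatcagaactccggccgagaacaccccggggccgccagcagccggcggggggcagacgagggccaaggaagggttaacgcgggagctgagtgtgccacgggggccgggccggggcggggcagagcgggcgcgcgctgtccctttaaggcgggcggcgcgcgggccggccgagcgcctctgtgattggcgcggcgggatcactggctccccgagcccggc

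The *Wnt11* window was picked as one that holds GACGTG, while those of *Wnt3* and *Axin2* were the first listed. It held both words, GACGTG with its first base 62 bases before the start and ATCAAAG 51 bases before it, and the words do not overlap. Neither word was found in the windows of *Wnt3* and *Axin2*. RefSeq windows were matched for 38 of the 54 Wnt signalling genes (52 windows) and for 10 of the 14 called ones (11 windows). GACGTG occurred in 4 of the 52 windows, those of *Fzd9*, *Tcf7l2*, *Wnt11* and *Wnt5b*, and in 6.38% of all 32851 windows of this length. ATCAAAG occurred in 3 (*Prickle2*, *Wnt11* and *Wnt5b*) and in 3.73% of all windows. *Wnt11* was thus the only called gene with a match to either word among those matched, and a match is a description of the letters, not of binding.

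Of the Frizzled receptors, the seven-pass membrane proteins that bind Wnt ligands, the most abundant per exon length fell and another rose. *Fzd7* (chromosome 1) had 531, 548, 595, 565 and 497 normalised counts in the controls and 430.0, 409, 445, 394 and 461 in the knockdown, with no overlap. It fell by 0.35 on the log2 scale (SE 0.0576; 95% CI -0.47 to -0.23; edgeR, adjusted p = 3.4e-05). *Fzd6*, a receptor known from planar cell polarity (chromosome 15), had 281, 247, 271, 287 and 264 normalised counts in the controls and 343, 332, 327, 337 and 308 in the knockdown, again without overlap. It rose by 0.28 on the log2 scale (SE 0.0631; 95% CI 0.15 to 0.42; edgeR, adjusted p = 0.00079). As a share of the summed RPKM of the 9 Frizzled receptors, *Fzd7* was 34.1% ± 1.67 in the controls and 26.7% ± 1.37 in the knockdown, and *Fzd6* was 15.9% ± 1.16 and 19.3% ± 1.18. The sum was 17.4 ± 0.611 RPKM in the controls and 17.4 ± 0.430 RPKM in the knockdown. As with the ligands, the shares shifted between members while the total of these 9 was within the spread of the libraries. *Fzd10*, one of the further genes read below, was not part of this sum. It had 3.82 RPKM in the controls and 4.45 RPKM in the knockdown, without overlap, and did not pass (edgeR, adjusted p = 0.0105).

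Among the Frizzled genes of this sum, the other 5 tested did not pass. *Fzd4* came closest, with 285 ± 14.5 normalised counts in the controls and 249 ± 14.1 in the knockdown and no overlap (log2 fold change -0.20; edgeR, adjusted p = 0.018). *Fzd3* had a log2 fold change of 0.16 (edgeR, adjusted p = 0.021), which passed without knockdown replicate 2 (0.20, adjusted p = 0.0019). *Fzd2* had one of 0.26 (edgeR, adjusted p = 0.10), which passed without knockdown replicate 1 (0.38, adjusted p = 0.0070), a library with 102.9 normalised counts where the other knockdown libraries had 132 to 193. *Fzd5* had 227 ± 40.5 and 259 ± 23.3 normalised counts. *Fzd9* was the lowest of the tested receptors, with 17.1, 7.42, 13.4, 11.3 and 16.0 normalised counts in the controls and 13.8, 15.0, 20.2, 10.4 and 11.8 in the knockdown. At this depth its 95% CI for the log2 fold change was -0.47 to 0.68.

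The Lrp co-receptors moved in opposite directions. Lrp5 and Lrp6 are single-pass receptors that pair with Frizzled in the canonical branch. *Lrp5* (chromosome 19) had 2925, 3006, 2539, 2685 and 2767 normalised counts in the controls and 2227, 2376, 2288, 2193 and 2256 in the knockdown. *Lrp6* (chromosome 6) had 896, 870.0, 874, 800.0 and 939 in the controls and 1148, 1055, 1102, 1056 and 1029 in the knockdown. Neither gene overlapped between the lines. *Lrp5* fell by 0.30 on the log2 scale (SE 0.0395; edgeR, adjusted p = 2.8e-06). *Lrp6* rose by 0.30 (SE 0.0422; edgeR, adjusted p = 5.6e-06), a change that was 0.18 when GC content and transcript length were corrected for. *Lrp5* was 4.47 ± 0.347 times as abundant as *Lrp6* in RPKM in the controls and 2.96 ± 0.170 times in the knockdown (SD, n = 5), with ranges of 4.08 to 4.85 and 2.72 to 3.16. *Lrp5* remained the more abundant of the pair in every library.

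The receptors of the other branches also moved in opposite directions. *Ryk*, a receptor with an inactive kinase domain (chromosome 9), had 2376, 2296, 2270.3, 2422 and 2298 normalised counts in the controls and 1827, 1667, 1608, 1806 and 1608 in the knockdown. *Ryk* fell 1.37-fold (log2 fold change -0.45 ± 0.0377, 95% CI -0.53 to -0.37; edgeR, adjusted p = 3.8e-09). It was the most abundant of the 5 co-receptor and alternative receptor genes per exon length in both lines, at 25.4 RPKM in the controls and 18.5 RPKM in the knockdown. *Ror1*, a receptor tyrosine kinase-like protein that binds Wnt5a (chromosome 4), had 352, 341, 334, 315 and 321 normalised counts in the controls and 413, 439, 439, 442 and 394 in the knockdown. *Ror1* rose by 0.35 on the log2 scale (SE 0.0573; edgeR, adjusted p = 3e-05), with no overlap. Its known ligand gene *Wnt5a* had no more than 1 count in any library, and *Ror2* had no more than 5. The summed RPKM of the 5 receptors was 45.5 ± 1.27 in the controls and 37.6 ± 1.14 in the knockdown.

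*Znrf3* encodes a ubiquitin ligase that removes Frizzled and Lrp6 from the cell surface, and is itself a known target of β-catenin. On chromosome 11, it had 419, 418, 459.7, 396 and 391 normalised counts in the controls and 609, 625, 639, 505 and 575 in the knockdown. All knockdown libraries were above all controls, and the rise was 1.42-fold (log2 fold change 0.50 ± 0.0632, 95% CI 0.37 to 0.64; edgeR, adjusted p = 1.3e-06). Its relative *Rnf43* had no counts.

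Of the 3 Dishevelled genes, whose proteins relay the signal from Frizzled, *Dvl3* and *Dvl2* rose. *Dvl3* (chromosome 16) had 1236, 1307, 1270.2, 1261 and 1276 normalised counts in the controls and 1830.2, 1954, 1933, 1799 and 1807 in the knockdown. Its lines lay far apart compared with their spread, and it rose 1.47-fold (log2 fold change 0.55 ± 0.0318, 95% CI 0.49 to 0.62; edgeR, adjusted p = 1.2e-11). *Dvl2* (chromosome 11) had 1099, 1035, 1048, 1023 and 1029 normalised counts in the controls and 1201, 1184, 1197, 1138 and 1189.6 in the knockdown. That is a small but separate shift of 0.18 on the log2 scale (SE 0.0318; edgeR, adjusted p = 0.00011). *Dvl2* overlaps *Acadvl* on the opposite strand, a gene that went the other way (2607 and 2032 mean normalised counts). *Dvl1*, the most abundant, had 4921, 4843, 4786, 4936 and 4681 normalised counts in the controls and 4598, 4869.7, 4944, 4701 and 4599 in the knockdown, with a 95% CI for its log2 fold change of -0.09 to 0.03.

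Expressed per exon length, *Dvl1* accounted for 72.6% ± 0.470 of Dishevelled transcripts in the controls and 66.5% ± 0.481 in the knockdown. *Dvl3* accounted for 14.9% ± 0.445 and 20.4% ± 0.277, with ranges of 14.3% to 15.3% and 20.02% to 20.8%. The summed RPKM of the 3 genes was 65.7 ± 1.06 in the controls and 70.4 ± 2.12 in the knockdown. Here, unlike for the ligands and the Frizzled receptors summed above, the total was higher in every knockdown library (68.6 to 73.0) than in any control (64.1 to 66.7).

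*Dact1*, which encodes a Dishevelled-binding protein that can promote Dishevelled degradation, also rose. It had 41.2, 74.2, 47.7, 55.4 and 65.1 normalised counts in the controls and 113, 110.2, 111, 108.96 and 90.0 in the knockdown, without overlap. The log2 fold change was 0.90 ± 0.135 (95% CI 0.62 to 1.18; edgeR, adjusted p = 1.2e-05), or 1.87-fold. *Dact1* was on a list that the study chose on these libraries, so its call is not independent of that choice. *Dact3* did not pass (291 ± 19.2 and 262 ± 23.3 normalised counts; edgeR, adjusted p = 0.087). *Dact2*, *Nkd1* and *Nkd2*, further regulators that bind Dishevelled, were at or near 0.

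Within the β-catenin group, *Axin2* rose and the other 4 genes did not pass. *Axin2*, a scaffold of the destruction complex and a widely used reporter gene of canonical signalling, lies on chromosome 11 from 108920349 to 108950783 on the plus strand. Normalised counts of *Axin2* were 641, 662, 661, 638 and 606 in the controls and 978, 980.4, 955, 947 and 846 in the knockdown. Every knockdown library exceeded every control. It rose 1.47-fold (log2 fold change 0.55 ± 0.0437, 95% CI 0.46 to 0.64; edgeR, adjusted p = 1.7e-09), from 5.75 to 8.43 RPKM. *Axin1*, its constitutive relative, had 1323 ± 67.5 normalised counts in the controls and 1432 ± 64.9 in the knockdown. The lines did not overlap for *Axin1* by a narrow margin, and its log2 fold change of 0.11 (95% CI 0.03 to 0.19) did not pass (edgeR, adjusted p = 0.018). It did pass without knockdown replicate 2 (0.12, adjusted p = 0.0085) and without control replicate 2 (0.13, adjusted p = 0.0096).

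*Ctnnb1*, the gene for β-catenin, was the most abundant of all the Wnt signalling genes at 112 RPKM in the controls and 109.6 RPKM in the knockdown. It had 11750.1, 11769.8, 11957, 11734 and 11827 normalised counts in the controls and 11597, 11853, 11377, 11503 and 11377 in the knockdown. The lines overlapped, and the 95% CI of the log2 fold change was -0.08 to 0.01. For *Gsk3b*, the kinase of the destruction complex, the values were 5037 ± 162 and 5189 ± 87.5 (log2 fold change 0.04; edgeR, adjusted p = 0.21). *Apc*, the large scaffold of the complex, had 4204 ± 136 and 4120.0 ± 562 normalised counts, its wide spread coming from knockdown replicate 2, which had 3229 where the other knockdown libraries had 3905 to 4587. These are levels of mRNA, and β-catenin is regulated mainly as a protein, which was not measured here.

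The TCF/LEF factors, the DNA-binding partners of β-catenin, were low, and neither of the 2 tested passed. *Tcf7* had 74.4, 59.3, 69.7, 81.7 and 85.8 normalised counts in the controls and 71.7, 66.4, 77.7, 88.1 and 65.4 in the knockdown. *Lef1* had 26.2, 19.1, 33.0, 20.7 and 19.8 in the controls and 27.6, 16.1, 38.3, 21.8 and 17.3 in the knockdown. The lines overlapped for both genes, with 95% CIs of the log2 fold change of -0.28 to 0.25 for *Tcf7* and -0.48 to 0.55 for *Lef1*. *Tcf7l1* had at most 5 counts in a library and *Tcf7l2* at most 3. *Tcf7* therefore supplied 89.9% of the summed TCF/LEF RPKM in the controls and 89.1% in the knockdown, of a total of 1.55 and 1.56 RPKM.

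The planar cell polarity genes, which orient cells within a tissue, did not pass either. *Vangl2*, a membrane protein of the core complex, was the highest, with 821, 845, 862, 787 and 752 normalised counts in the controls and 799, 831, 874, 822 and 811 in the knockdown (95% CI of the log2 fold change -0.06 to 0.11). *Vangl1* was the lowest of those tested, with 60.3, 51.9, 63.6, 56.3 and 66.9 in the controls and 72.6, 71.7, 69.1, 46.4 and 63.6 in the knockdown. *Prickle1*, a cytoplasmic component, had 201 ± 19.9 and 186 ± 19.8 normalised counts.

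The position of the genes and of seed words was also examined. Of 8 Wnt signalling genes on chromosome 11, 7 were tested and 4 rose (*Wnt3*, *Axin2*, *Dvl2* and *Znrf3*), with none falling. Over all 1163 tested genes of that chromosome 19.2% rose and 21.6% fell, and their median log2 fold change was -0.014. The word TCAACAA, capitalised in the Creb3l1 hairpin above, occurred in the longest annotated 3′ UTR of 9.30% of the 12370 tested genes with one. It occurred in 5 of the 34 tested Wnt signalling genes (14.7%): *Lrp5*, which fell, and *Wls*, *Fzd4*, *Ctnnb1* and *Vangl1*, which did not pass. None of the 9 genes that rose held it. Whether the hairpin acts on *Lrp5* was not tested. Besides *Dvl2*, the called genes *Wnt6*, *Wnt11*, *Fzd6*, *Ror1*, *Dvl3*, *Dact1* and *Axin2* overlap an annotated gene on the opposite strand that was not tested. The strand setting of the counting was not given in the sources used here.

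Further genes of Wnt signalling, listed by role to give the rest of the pathway, were read in the same fit. Of these, 13 had no count, 30 were too low to test and 59 were tested. Of the 59, 36 passed (61.0%, against 39.3% of all genes tested). Those higher were 25 (42.4%, against 19.9% of all genes tested) and those lower 11 (18.6%, against 19.4%). The median log2 fold change of the 59 was 0.096, and their median level of 1006 normalised counts was above the 594 of all tested genes and the 339 of the 34 Wnt signalling genes described above. Other destruction complex genes and regulators, with a median level of 1401 normalised counts, accounted for 12 of the calls. Of 18 tested, 10 were higher (55.6%) and 2 lower (11.1%). Among the higher were the casein kinases *Csnk1a1* (5251 and 6287 mean normalised counts in control and knockdown) and *Csnk1g3* (1409 and 1751), which phosphorylate pathway components. *Btrc* (1168 and 1390), which recognises phosphorylated β-catenin, was also higher. Nuclear co-factors (median level 1068) were split, with 6 higher (40%) and 5 lower (33.3%) of 15. Of 15 tested planar cell polarity and non-canonical genes (median level 1171) 6 were higher (40%) and 3 lower (20%). Among 5 tested further receptors 1 was higher, *Kremen1*, and 1 lower, *Lgr4* (399 and 347 mean normalised counts). The only tested gene among the other ligands and agonists, *Rspo4*, rose, and the only tested further antagonist, *Sfrp5*, did not pass (173 and 181 mean normalised counts).

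The 5 largest rises on this list were *Nfatc2*, *Rspo4*, *Kremen1*, *Tle3* and *Ccnd1*. *Nfatc2*, a calcium-responsive transcription factor, had 114, 124, 127, 102.3 and 140.5 normalised counts in the controls and 314, 321, 307, 269 and 233 in the knockdown (log2 fold change 1.25 ± 0.101; edgeR, adjusted p = 2.6e-09). *Rspo4*, a secreted agonist whose family counteracts Znrf3, had 84.5, 90.1, 89.2, 105.2 and 80.1 in the controls and 210.4, 196, 190.4, 184 and 182 in the knockdown (1.10 ± 0.0893; adjusted p = 2.7e-09). *Kremen1*, a receptor for Dickkopf antagonists, had 159, 176, 183, 159 and 183 in the controls and 293, 364, 370.2, 315 and 305 in the knockdown (0.94 ± 0.0823; adjusted p = 8.5e-09). In each of these genes the lines were fully separate. *Tle3*, a co-repressor that binds TCF/LEF factors, had 615, 626, 674, 568 and 635 in the controls and 1015, 1137, 1051, 1113 and 1069.6 in the knockdown (0.79 ± 0.0439; adjusted p = 7.6e-12).

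*Ccnd1*, the cyclin D1 gene, was the only called member of the β-catenin target group, in which *Myc*, *Twist1* and *Sox9* did not pass and 12 of 16 genes were at 0 or too low to test. It had 64.4, 50.9, 50.1, 91.1 and 73.5 normalised counts in the controls and 96.5, 81.3, 100, 100.4 and 95.4 in the knockdown, with an overlap through control replicate 4. Its call (log2 fold change 0.50 ± 0.141; edgeR, adjusted p = 0.0053) was lost without control replicate 1, 2 or 3 and without knockdown replicate 1, 3, 4 or 5, with adjusted p between 0.0106 and 0.0181.

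The 5 largest falls were smaller than the 5 rises, except that *Tle2* fell by more than *Ccnd1* rose. *Tle2*, a relative of *Tle3*, fell from 211 ± 20.6 to 132 ± 11.0 normalised counts (log2 fold change -0.68; edgeR, adjusted p = 1.7e-06), the reverse direction of *Tle3*. *Tnks2*, a tankyrase that marks Axin for degradation, fell from 4988 ± 58.0 to 3631 ± 74.1 (-0.46; adjusted p = 9.1e-12), while *Tnks* did not pass (5310.2 and 5235 mean normalised counts). *Cby1*, a β-catenin antagonist, fell from 515 ± 14.7 to 406 ± 25.6 (-0.34; adjusted p = 1.8e-05), a change that was -0.21 when GC content and transcript length were corrected for. *Dixdc1*, which binds Dishevelled, fell from 438 ± 18.2 to 359 ± 26.8 (-0.29; adjusted p = 0.00046). *Fuz*, a planar cell polarity effector, fell from 573 ± 33.1 to 467 ± 43.6 (-0.30; adjusted p = 0.00040), with an overlap between the lowest control library and the highest knockdown library.

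**Figure D4:**
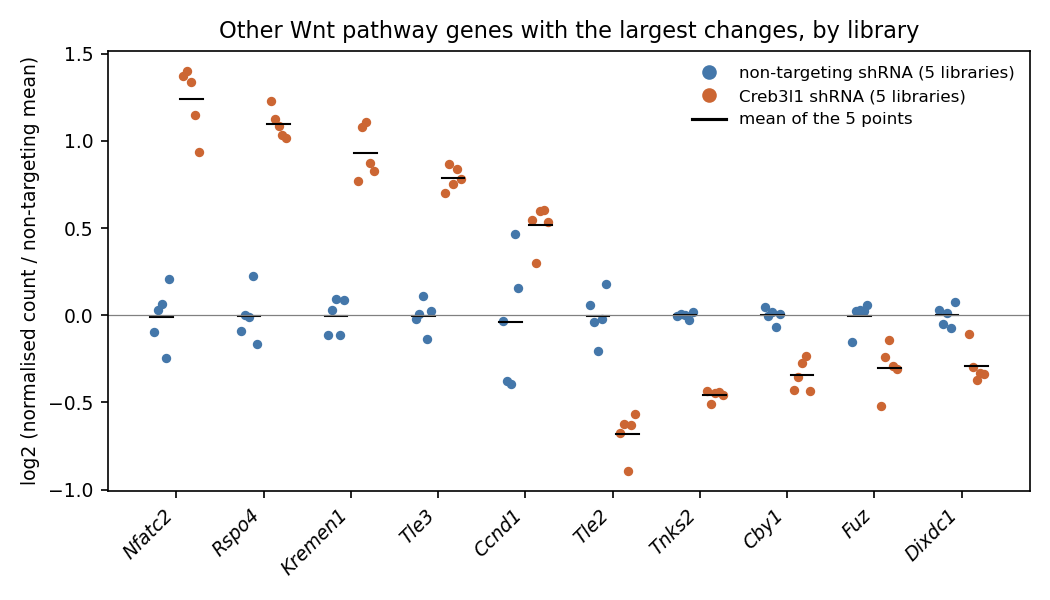
Log2 ratio of the normalised count in each library to the non-targeting shRNA mean, for the 5 largest called rises and 5 largest called falls of the further Wnt list. Blue points are the 5 libraries with non-targeting shRNA, orange points the 5 with Creb3l1 shRNA, and black bars the mean of each 5. The lines overlap for *Ccnd1* and *Fuz* and are separate for the other 8 genes.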

How the data were processed

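RNA from AtT20 cells was extracted with QIAzol and a Direct-zol kit, made into TruSeq stranded poly(A) libraries and sequenced paired-end on an Illumina HiSeq. The authors' deposited table holds raw read counts per Ensembl gene for the 10 libraries (5 per line), made with STAR and featureCounts on GRCm38 after quality trimming; per the labels DESeq2 was used for calling. The counts were analysed as deposited with edgeR 4.0.16 in R 4.3.3 (filterByExpr, TMM, quasi-likelihood F test, Benjamini-Hochberg adjustment over all 14336 tested genes, threshold 0.01). Standard errors were taken from the estimate and its F statistic. RPKM used the union exon length of GENCODE M21. Named genes were every called gene of the 54, the highest and lowest of each role, and the 5 largest called rises and falls of the further list whose mean normalised count reached 50. Other genes of the further list, such as *Csnk1a1*, *Csnk1g3* and *Btrc*, were named as examples outside this rule. The Wnt genes and lists were chosen with earlier results of these data known.

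Tested on simulated counts for 14336 genes, the same steps called 93 of 100 genes changed by 1 on the log2 scale, 77 of 100 changed by 0.5 and 5 of 14136 unchanged genes. Depth was 17420698 to 22205107 counts per library. Alternatives were DESeq2 1.42.0, other scalings and filters, a replicate block, each library left out, offsets for GC content and transcript length, other thresholds, and robust dispersion moderation, which was added after seeing the data.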

Additional observations from a re-analysis of the deposited data

Results flagged for a closer look

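In the 90 groups of 5 libraries examined for the tested Wnt signalling genes, *Creb3l1* and the named genes of the further list, 11 had a highest or lowest library set apart from the other 4 by Dixon's 95% criterion, where chance alone gives about 4.5. Knockdown replicate 4 was the low library for *Wnt3* (284 normalised counts, the others 327 to 341) and for *Dvl2* (1138, the others 1184 to 1201), and the high one for *Axin1* (1546, the others 1391 to 1423). Knockdown replicate 5 was low for *Dact1* (90.0, the others 108.96 to 113) and for *Axin2* (846, the others 947 to 980.4). Knockdown replicate 2 was low for *Ccnd1* (81.3, the others 95.4 to 100.4) and for *Tnks2* (3502, the others 3638 to 3685). Knockdown replicate 1 was high for *Dixdc1* (406, the others 339 to 356). In the controls, replicate 1 was high for *Wls* (316, the others 254 to 263) and low for *Fuz* (515, the others 584 to 598), and replicate 4 was low for *Fzd5* (155, the others 235 to 249). Of the genes set apart here, those called in the report lay on the same side of the threshold when the library in question was left out.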

How the results depend on the processing

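All 14 calls among the Wnt signalling genes were kept under every alternative run at an adjusted p of 0.01, apart from *Wnt11*, which was not tested when 10 counts were required in every library, and apart from the fold minimum. Leaving out each library in turn gave 14 to 17 calls among them (9 to 11 higher, 5 to 6 lower), 5144 to 5815 over all genes and 30 to 36 on the further list. Without the filter on low counts 17 passed, with *Axin1*, *Fzd3* and *Wnt10a* added. Scaling by library totals only gave 15, with *Fzd3* added. An adjusted p under 0.05 gave 19 calls, 8 of them lower. Requiring a change of at least 1.5-fold left 4 calls (2 higher, 2 lower), 1088 over all genes (460 higher, 628 lower) and 5 on the further list (4 higher, 1 lower). Robust moderation gave 5837 calls over all genes, 14 and 38. Libraries with the same replicate number did not deviate together (correlations from -0.060 to 0.036), and the replicate block gave 5680 calls over all genes and the same 14.

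Among genes that did not pass, the log2 fold change turned direction for *Porcn* with library totals (0.0057). With the GC content and transcript length offsets it turned for *Porcn* (0.064), *Wls* (-0.0059), *Fzd3* (-0.013), *Gsk3b* (-0.068), *Tcf7* (0.049) and *Vangl2* (-0.017), while *Fzd4*, *Axin1* and *Apc* (-0.18) passed. With a library left out it ranged across 0 for *Porcn* (-0.066 to 0.071), *Fzd9* (-0.042 to 0.22), *Lef1* (-0.17 to 0.17), *Wls* (-0.011 to 0.082), *Tcf7* (-0.086 to 0.048) and *Apc* (-0.070 to 0.049). The causes were not tested. The 2 tested Wnt signalling genes of lowest count, *Fzd9* and *Wnt11*, had the widest 95% CIs (-0.47 to 0.68 and -1.99 to -0.82).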
